A study of Homo sapiens with 12 samples.

Results

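The libraries described here compare VCaP-CT cells returned to 10 nM testosterone (T) for 48 h with VCaP-CT cells kept at 0.1 nM T. They were chosen by their labels and are 6 of the 12 libraries of the series, 3 per group. VCaP is a cell line from a prostate cancer metastasis, with the TMPRSS2-ERG fusion. VCaP-T is a line made from it by long culture with 10 nM T, and VCaP-CT is 1 further line that was grown from VCaP-T at 0.1 nM T until it grew at that level, which stands for T after castration. Both lines were kept in RPMI 1640 with charcoal-stripped serum, so that the T added was the main androgen in the medium, and VCaP-CT was used at passage 73 and VCaP-T at passage 84. The other 2 groups, VCaP-T at 10 nM T and VCaP-T switched for 48 h to 0.1 nM T, enter below where the responses of the lines are set side by side. The comparison asks which genes still follow T in cells adapted to a castrate level. Neither labels nor methods state whether the 3 libraries of a group came from separate cultures, and p-values therefore rest on differences among libraries that can be of technical origin.

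Testosterone is the main androgen of the blood, and in the prostate it sustains the luminal cells that make the secreted proteins of semen. In these cells androgen raises genes of secretion, lipid synthesis and polyamine synthesis and lowers others. Prostate tumors are treated by castration, which removes most androgen, and those that return grow at low hormone levels. In cell culture a high androgen dose can both drive and slow the growth of cells adapted to little androgen.

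Between 30469731 and 40825204 fragments per library were counted in genes in the 6 libraries, and genes of the mitochondrial genome took 6.8 to 7.543% of them. Values below are counts scaled for depth and composition (normalized counts), which compare 1 gene between libraries and not 1 gene with another. The labelled cell type was checked against markers. Of 13 markers of luminal prostate epithelium, none was under 1 normalized count, and their summed level was 410859 to 414684 at 0.1 nM T and 573878 to 598963 at 10 nM T. KLK2 alone gave means of 205046 and 347386 of these. Of 13 markers of blood cells, 8 were under 1 normalized count on average in both groups. Markers of other cell types were not all absent. Hepatocyte markers summed to 2445 to 2576 at 0.1 nM T and 852 to 914 at 10 nM T. Neuroendocrine markers summed to 2781 to 2857 and 2803 to 3171. In poly(A) RNA of a whole culture, fewer cells of a kind and less RNA per cell cannot be told apart. Replicate 2 of VCaP-T at 0.1 nM T for 48 h (depleted replicate 2 below) stood apart from its sisters, with correlations of 0.9653 and 0.9695, against at least 0.9933 in the rest of the series. It is no VCaP-CT library but enters the shared estimate of the spread. Counts of gene lists, and calls of named genes on rechallenge, that change without this library are given both ways.

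More genes were called lower than higher after the return to 10 nM T. At an adjusted p under 0.01 from edgeR's quasi-likelihood test, 1354 of 19162 genes rose (7.07%) and 1378 fell (7.19%), and without depleted replicate 2 these shares were 19.0% and 17.6% of 19649 genes. With log2 fold changes beyond 1 or -1 and group medians more than 13 normalized counts apart as well, 984 genes were called (5.14% of those tested), 351 higher (1.83%) and 633 lower (3.30%). The count was 1145 without depleted replicate 2 (5.83%) and 1142 with the 6 VCaP-CT libraries alone (6.42%). The called genes held 790 protein-coding genes, 270 higher and 520 lower, 134 long noncoding RNAs, 49 higher and 85 lower, and 52 pseudogenes. The median log2 fold change was 1.55 over the genes called higher and -1.49 over those called lower, against -0.02 over all genes tested. Log2 fold changes beyond 2 were seen in 113 genes upward and 148 downward. In all 984 called genes the libraries of the groups did not overlap, which was so for 55.7% of the genes tested. The first principal component of the 500 most variable genes separated the groups and held 90.3% of the variance, and the second, 3.5%, lay between replicates at 10 nM T.

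**Figure D1:**
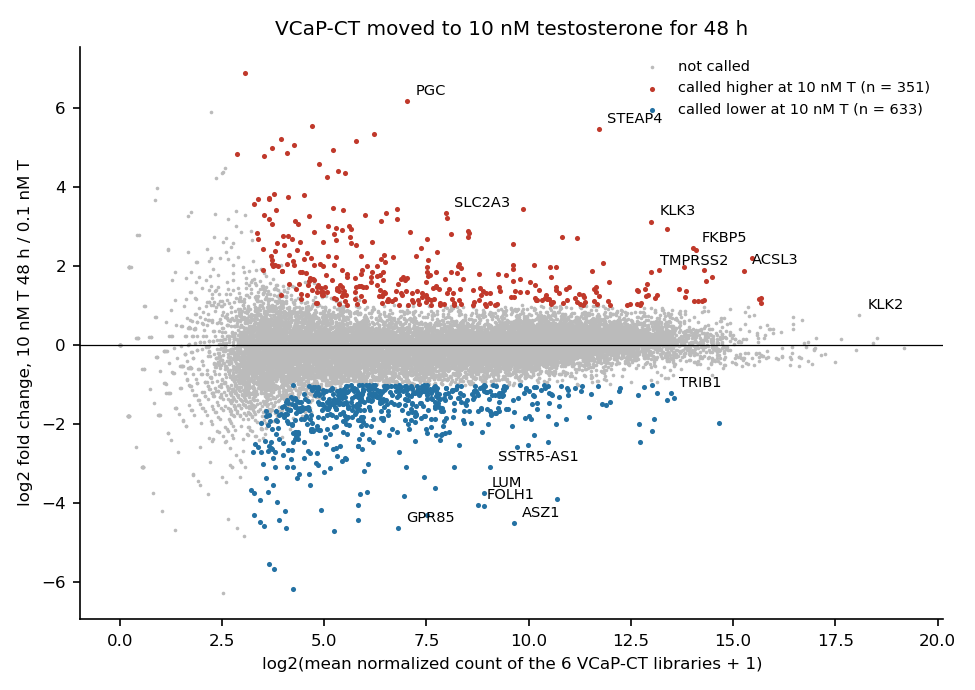
Each point is 1 of the 19162 genes tested, with its mean level in the 6 VCaP-CT libraries on the x axis, as log2(mean normalized count + 1), and the log2 fold change of 10 nM T for 48 h over 0.1 nM T on the y axis (red, the 351 called higher, blue, the 633 called lower, gray, the rest). STEAP4 and PGC stand above the other labelled genes and GPR85 and ASZ1 below them, and TRIB1 is the most abundant gene labelled in blue.

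Classical androgen targets rose. KLK3, which encodes prostate-specific antigen (ENSG00000142515.14, chromosome 19, 50854915 to 50860764 of GRCh38), had 1652, 1659 and 1695 normalized counts in the libraries at 0.1 nM T and 14876, 14005 and 15053 in those at 10 nM T (log2 fold change 3.13, SE 0.11, adjusted p = 8.17e-09), and the mean rose 8.77-fold. The bases before the KLK3 start site are shown because they hold the known element of this promoter. They are RefSeq sequence of GRCh38.p14, plus strand, chr19:50854665-50854914, with the match to AGAACA, any 4 bases, GT, any base and CT, letters chosen to fit it, in capitals.
KLK3: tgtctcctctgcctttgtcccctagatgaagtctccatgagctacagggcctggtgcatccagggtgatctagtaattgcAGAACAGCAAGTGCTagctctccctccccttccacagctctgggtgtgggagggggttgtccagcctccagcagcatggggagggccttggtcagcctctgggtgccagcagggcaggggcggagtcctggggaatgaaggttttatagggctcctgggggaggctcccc
The letters were searched on both strands of 35116 promoters of 300 bases, each 250 before and 50 after a start, and 0.122% of them held a match. Of the 12 tested genes with the letters, 5 rose and 1 fell at an adjusted p under 0.01 in the fit of all libraries. Of all genes tested 7.07% rose and 7.19% fell. Those that rose were KLK3 itself, to which the letters were fitted, FAM107A and LINC03007, both also called, and HSPA4 (adjusted p = 0.00246, up to 0.0182 without 1 library) and RNF41 (adjusted p = 0.00894, up to 0.0410 without 1 library), and BLOC1S6 fell (log2 fold change -0.60, adjusted p = 2.07e-04). A match is a run of letters and not a measured site.

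The other markers of androgen action did not move alike. FKBP5, a cochaperone of steroid receptors, had 5113, 5186 and 5048 at 0.1 nM T and 28773, 28592 and 27632 at 10 nM T (log2 fold change 2.47, SE 0.11, adjusted p = 5.13e-08). TMPRSS2, the androgen-induced membrane protease whose control region drives ERG in this line, had 3610, 3585 and 3371 at 0.1 nM T and 12456, 12939 and 13141 at 10 nM T (log2 fold change 1.87, SE 0.07, adjusted p = 7.52e-09). ERG rose from 12223 ± 292 to 26609 ± 672 (SD, n = 3 libraries each, log2 fold change 1.12, adjusted p = 2.50e-06). In FKBP5, TMPRSS2 and ERG the groups did not overlap. KLK2, a kallikrein next to KLK3 and among the most abundant transcripts here, rose by less, from 205046 ± 2178 to 347386 ± 9356 (log2 fold change 0.76, adjusted p = 1.12e-05). Kallikrein genes are close copies, and fragments that fit several of them were not counted. The luminal factors HOXB13 and FOXA1 had log2 fold changes of -0.05 and -0.05 and did not pass (adjusted p = 0.742 and 0.625).

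**Figure D2:**
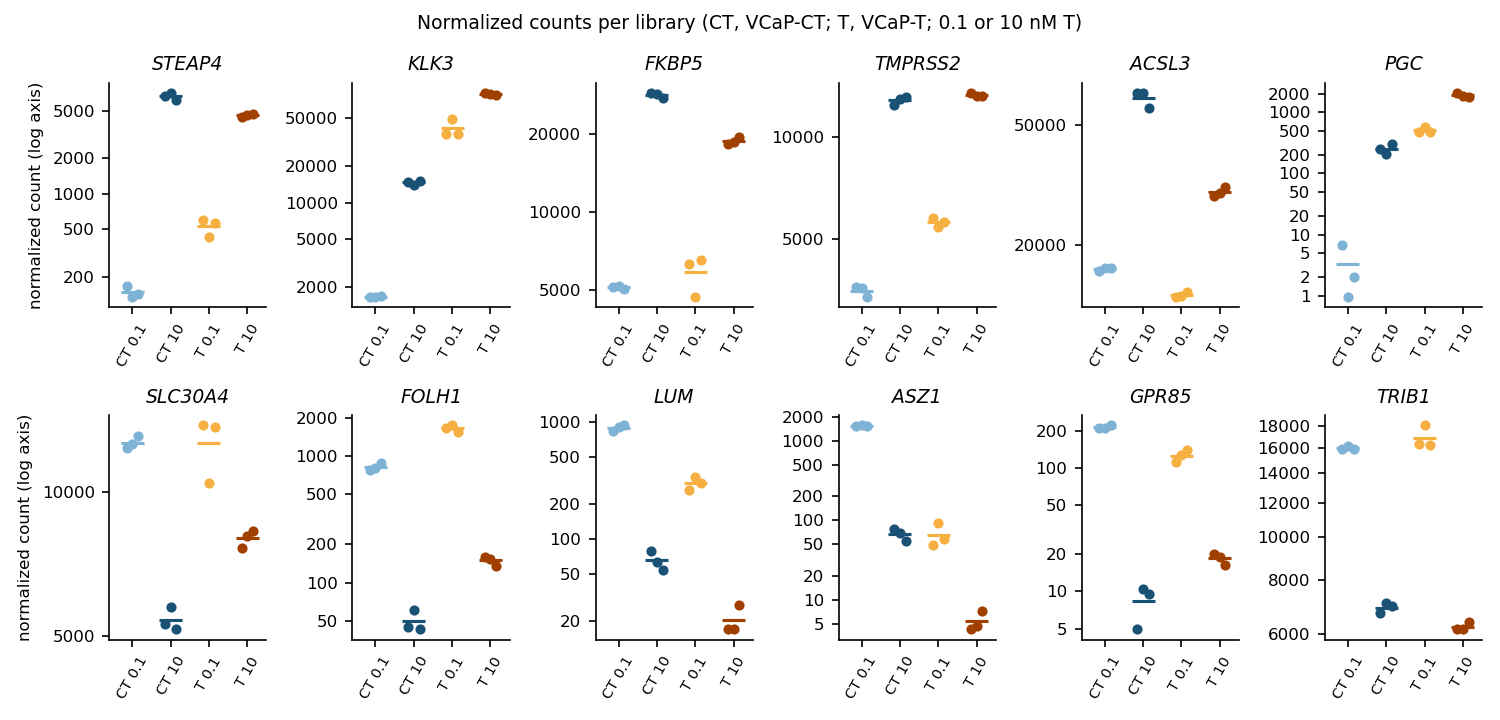
Normalized counts of 12 genes in each library on log axes, a point per library and a bar at the mean of 3, for VCaP-CT at 0.1 and 10 nM T (light and dark blue) and VCaP-T at 0.1 and 10 nM T (light and dark orange). The upper 6 genes rose and the lower 6 fell in VCaP-CT with no overlap, and KLK3 after rechallenge stayed under its level in VCaP-T at either dose.

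On a list of known androgen-induced genes 41 of 63 genes rose and 2 fell (54 and 2 without depleted replicate 2, 38 to 41 and 1 to 2 without any 1 VCaP-CT library), with a median log2 fold change of 0.88 against -0.02 over all genes. Counts of this and later lists are at the adjusted p alone and stand beside the 7.07% higher and 7.19% lower of all genes tested, or 19.0% and 17.6% without depleted replicate 2. The 2 that fell were ADAMTS1, a secreted metalloprotease, from 113 ± 6.19 to 49.0 ± 11.9, which is -1.22 ± 0.18 on the log2 scale (SE, adjusted p = 4.16e-04), and KCNN2, a potassium channel, from 4040 ± 45.0 to 2984 ± 69.6 (log2 fold change -0.44, adjusted p = 0.00169, up to 0.0101 without 1 library). STEAP4, a metalloreductase of the endosome (ENSG00000127954.12, chromosome 7, 88270892 to 88306891), had the smallest adjusted p of the list, from 166, 134 and 142 to 6657, 7012 and 6148 (log2 fold change 5.48, SE 0.14, adjusted p = 1.37e-09). Its lowest library at 10 nM T was far above its highest at 0.1 nM T. On a list of androgen-repressed genes 3 of 28 genes rose and 14 fell (5 and 15 without depleted replicate 2), with a median of -0.72. The 3 that rose were BMPR1B, a BMP receptor, from 1646 ± 13.3 to 3236 ± 174, and UGT2B11 and UGT2B28, enzymes of glucuronidation. These lists come from common knowledge of androgen biology and earlier results of these cells, so their directions here are no independent evidence.

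By the naming rule, the genes with the largest rises and a mean of at least 100 normalized counts at 10 nM T were PGC, STEAP4, C22orf42, ORM2, BEAN1, LINC00920, PLA2G4E, SLC2A3, ENSG00000250767, UGT2B11, MYH13 and SCIRT. PGC, the protease precursor pepsinogen C, which prostate also secretes, had 6.85, 0.947 and 2.00 at 0.1 nM T and 249, 209 and 308 at 10 nM T (log2 fold change 6.18, SE 0.32, adjusted p = 1.15e-07). It was nearly absent before the change and still below its level in VCaP-T, where the mean was 510.4 at 0.1 nM T and 1907 at 10 nM T. ORM2, an acute phase plasma protein, went from 5.13, 0 and 3.01 to 118, 86.2 and 109.9 (log2 fold change 5.17, adjusted p = 3.89e-06), and since ORM1 is nearly identical the split between these is uncertain. BEAN1 and LINC00920 are neighbors on chromosome 16 and rose together, BEAN1 from 18.0 ± 1.92 to 199 ± 16.0 and LINC00920 from 155 ± 14.4 to 1697 ± 151. MYH13, a myosin heavy chain of eye muscle, rose from 21.2 ± 5.35 to 198 ± 37.0, and PLA2G4E, a cytosolic phospholipase, from 15.8 ± 3.60 to 163 ± 23.3. The called genes of highest level that rose included ACSL3, AGR2, SCD and NDRG1. AGR2, a disulfide isomerase of secretory cells, had 15838, 16267 and 15820 at 0.1 nM T and 77438, 73225 and 70318 at 10 nM T (log2 fold change 2.21, SE 0.21, adjusted p = 1.35e-05). AMACR, a racemase of branched fatty acids and a tissue marker of prostate cancer, chosen after its values were seen, rose from 2466 ± 147 to 18913 ± 654, which is 2.94 ± 0.08 on the log2 scale (SE, adjusted p = 1.81e-09), and 69.8% of the exon bases of ENSG00000250767 overlap other genes there.

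Genes of cholesterol synthesis rose, and among those of fatty acid metabolism rises and falls were both seen. In cholesterol synthesis and uptake 20 of 32 genes rose and 0 fell (23 and 1 without depleted replicate 2), with a median log2 fold change of 0.83. At an unadjusted p under 0.05 0 fell in edgeR, and DESeq2 called 0 at an adjusted p under 0.01. INSIG1, the sterol sensor that holds back the pathway's activator, had 3769, 4032 and 3894 at 0.1 nM T and 11570, 11528 and 11079 at 10 nM T (log2 fold change 1.55, SE 0.09, adjusted p = 3.37e-07). HMGCS1, which makes the first dedicated building block, rose from 8120 ± 107 to 21220 ± 871, and STARD4, a sterol carrier, from 858 ± 57.2 to 2380 ± 209.7 (log2 fold change 1.47). In efflux and storage 3 of 13 genes rose and 0 fell (3 and 2 without depleted replicate 2), with log2 fold changes of 0.40 to 0.60 among those that rose. ACSL3, an enzyme that activates fatty acids (ENSG00000123983.13, chromosome 2, 222860934 to 222944639), had 16372, 16826 and 16755 at 0.1 nM T and 64017, 63925 and 57311 at 10 nM T (log2 fold change 1.89, SE 0.07, adjusted p = 1.26e-08). SCD, the desaturase that makes oleic acid, rose from 31300 ± 224 to 70300 ± 602 (log2 fold change 1.17). In fatty acid synthesis and lipid droplets 12 of 37 genes rose and 3 fell (17 and 6 without depleted replicate 2, 8 to 9 and 2 to 3 without any 1 VCaP-CT library). Those that fell were FABP5, a fatty acid carrier, PLIN4, a lipid droplet coat protein, and SCD5, a second desaturase, with log2 fold changes of -1.49, -1.07 and -0.94 and means under 100 normalized counts in both groups. For PLIN4 the adjusted p was 0.00892, up to 0.0402 without 1 library. SCD and SCD5, which catalyze the same reaction, moved in opposite directions.

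Genes of protein folding in the endoplasmic reticulum (ER) rose by small amounts. In the ER, chaperones such as HSPA5 fold secreted proteins, and a shortage of them activates factors that bind the ER stress element, CCAAT and CCACG with any 9 bases between them, in the promoters of chaperone genes. In ER folding and the unfolded protein response 24 of 39 genes rose and 0 fell (33 and 0 without depleted replicate 2, 16 to 18 and 0 without any 1 VCaP-CT library). Log2 fold changes were 0.39 to 0.98 among those that rose, and none was called. At an unadjusted p under 0.05 0 fell in edgeR, and DESeq2 called 0 at an adjusted p under 0.01. The promoters of 4 of them are shown, since the element stands in each (RefSeq, GRCh38.p14, bases before the start, matches on either strand in capitals). HSPA5 lies at chr9:125241344-125241593 on the minus strand, HSP90B1 at chr12:103930160-103930409 on the plus strand, CALR at chr19:12938359-12938608 on the plus strand and PDIA6 at chr2:10812786-10813035 on the minus strand.
HSPA5: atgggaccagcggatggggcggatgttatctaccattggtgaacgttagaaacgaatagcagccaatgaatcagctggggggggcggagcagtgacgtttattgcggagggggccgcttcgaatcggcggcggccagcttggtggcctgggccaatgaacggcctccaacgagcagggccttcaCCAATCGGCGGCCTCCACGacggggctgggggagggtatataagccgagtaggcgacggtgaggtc
HSP90B1: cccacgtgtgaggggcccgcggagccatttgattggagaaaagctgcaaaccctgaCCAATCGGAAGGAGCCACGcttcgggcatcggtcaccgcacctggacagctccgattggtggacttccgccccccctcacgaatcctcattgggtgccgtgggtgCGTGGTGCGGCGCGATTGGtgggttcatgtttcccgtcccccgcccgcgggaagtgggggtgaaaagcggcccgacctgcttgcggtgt
CALR: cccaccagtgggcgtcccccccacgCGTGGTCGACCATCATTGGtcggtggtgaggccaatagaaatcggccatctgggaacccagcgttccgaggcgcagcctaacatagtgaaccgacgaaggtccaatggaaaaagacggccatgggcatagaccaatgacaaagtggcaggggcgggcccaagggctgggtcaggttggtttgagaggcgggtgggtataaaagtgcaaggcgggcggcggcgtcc
PDIA6: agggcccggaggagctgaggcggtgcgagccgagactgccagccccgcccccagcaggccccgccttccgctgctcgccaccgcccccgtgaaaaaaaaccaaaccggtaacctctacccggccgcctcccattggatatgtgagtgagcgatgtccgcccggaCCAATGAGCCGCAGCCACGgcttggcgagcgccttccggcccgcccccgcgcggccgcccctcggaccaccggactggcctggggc
The letters were in 8 of the 36 list genes with a promoter (22.2%). They were in 0.0916% of all genes with a promoter and 0.125% of tested genes with one. The element is known from promoters of chaperone genes, so its share in this list is no independent evidence. HSPA5 had 28547, 29080 and 28751 at 0.1 nM T and 54497, 50135 and 50517 at 10 nM T (log2 fold change 0.84, SE 0.12, adjusted p = 2.37e-04). HSP90B1, the ER form of HSP90, had 66753, 69332 and 68318 at 0.1 nM T and 118998, 114562 and 103368 at 10 nM T (log2 fold change 0.72, SE 0.12, adjusted p = 7.89e-04), and PDIA6, a disulfide isomerase, rose from 7077 ± 51.7 to 11469 ± 216 (log2 fold change 0.70). CALR and CANX, lectin chaperones, rose by 0.40 and 0.54 on the log2 scale, with adjusted p = 0.00273, up to 0.0188 without 1 library, for CALR and 0.00698, up to 0.0315 without 1 library, for CANX. The 3 other list genes with the element did not pass, CRELD2 at 0.70 (adjusted p = 0.0169, or 2.25e-07 without depleted replicate 2), ERO1B at 0.13 (adjusted p = 0.325) and XBP1, the factor of the response itself, at -0.08 (adjusted p = 0.690). Of all 15 tested genes with the element, 6 rose and 0 fell at that threshold in the fit of all libraries. Of all genes tested 7.07% rose and 7.19% fell. PDIA4 and DNAJC3, for which the search gave no match, rose by 0.87 and 0.91 on the log2 scale. Not every list gene had a promoter to search. Elements with other letters or outside the 300 bases were not looked for, so these 2 genes cannot be said to lack one. The genes with the element were chosen after their values were seen.

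In sugar transport and glycolysis 17 of 33 genes rose and 1 fell (22 and 2 without depleted replicate 2, 10 to 14 and 1 without any 1 VCaP-CT library), the latter being the neuronal enolase ENO2 (log2 fold change -0.83). SLC2A3, a glucose transporter of high affinity, had 40.2, 45.4 and 49.1 at 0.1 nM T and 448, 474 and 449 at 10 nM T (log2 fold change 3.35, SE 0.12, adjusted p = 7.52e-09), and the intestinal sodium-glucose transporter SLC5A1 went from 2.57, 1.89 and 2.00 to 76.3, 66.5 and 68.3, from near 0 to a low level. HK1, the hexokinase that starts glycolysis, rose from 3585 ± 33.9 to 7297 ± 290.1. In amino acid supply under the factor ATF4 11 of 33 genes rose and 1 fell (20 and 2 without depleted replicate 2, 8 to 10 and 1 without any 1 VCaP-CT library). The transporters SLC43A1 and SLC1A4 rose (log2 fold change 1.19 and 0.68), and the glutamate transporter SLC1A1 fell from 106 ± 3.25 to 48.4 ± 1.83. In polyamine metabolism 2 of 17 genes rose and 1 fell (8 and 3 without depleted replicate 2, 1 and 1 without any 1 VCaP-CT library). ODC1, which makes the first polyamine and is a classical androgen target, had 8328, 8548 and 8225 at 0.1 nM T and 31942, 31654 and 31088 at 10 nM T (log2 fold change 1.92, SE 0.13, adjusted p = 1.37e-06). SMS, a later enzyme of polyamine synthesis, rose as well (log2 fold change 0.82, adjusted p = 0.00411, up to 0.0225 without 1 library), and ARG2, an arginase, fell from 1782 ± 72.3 to 583 ± 32.3 (log2 fold change -1.61).

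Part of the genes of G1 and S phase rose, while the share of G2 and M phase genes that rose was below that of all genes in the fit of all libraries. In the G1 and S phases 13 of 49 genes rose and 0 fell (34 and 1 without depleted replicate 2, 7 to 11 and 0 without any 1 VCaP-CT library), which is 26.5% higher against 7.07% of all genes. At an unadjusted p under 0.05 1 fell in edgeR, and DESeq2 called 0 at an adjusted p under 0.01. RRM2, a subunit of ribonucleotide reductase, had 1083, 1152 and 1163 at 0.1 nM T and 2091, 2004 and 1991 at 10 nM T (log2 fold change 0.84, SE 0.10, adjusted p = 6.97e-05), and CDC25A, a phosphatase that opens S phase, rose from 1341 ± 42.2 to 2332 ± 99.9 (log2 fold change 0.80). The replication helicase genes MCM3 and MCM6 had log2 fold changes of 0.42 and 0.48. In the G2 and M phases 2 of 59 genes rose and 0 fell (13 and 5 without depleted replicate 2, 0 to 1 and 0 without any 1 VCaP-CT library), and 2 fell at an unadjusted p under 0.05 and 1 in DESeq2. The 2 are 3.39% of the list, under the 7.07% of all genes, and 13 of 59 is near the 19.0% of all genes without depleted replicate 2. Those that rose were AURKA (adjusted p = 0.00920, up to 0.0534 without 1 library) and MYBL2 (adjusted p = 0.00380, up to 0.0235 without 1 library), and the median of the list was 0.05, against 0.36 for G1 and S. MKI67, the usual proliferation marker, was at 16364, 16402 and 16623 and 17709, 18834 and 17382 (log2 fold change 0.13, SE 0.29, adjusted p = 0.799, or 0.00800 without depleted replicate 2). CCND1, cyclin D1, was at 19063, 18831 and 18934 and 23692, 23275 and 23408 and missed the threshold as well (adjusted p = 0.194, or 2.58e-07 without depleted replicate 2), and in neither gene did the groups overlap. CDKN1A, the inhibitor p21, had 1436, 1439 and 1448 at 0.1 nM T and 2721, 2606 and 2973 at 10 nM T (log2 fold change 0.94, SE 0.09, adjusted p = 1.43e-05). Among inhibitors of the cycle 3 of 27 genes rose and 6 fell (6 and 9 without depleted replicate 2). The sestrins SESN1 and SESN3, which restrain growth signaling, and CCNG2, an inhibitory cyclin, fell with log2 fold changes of -1.30, -1.38 and -1.44.

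**Figure D3:**
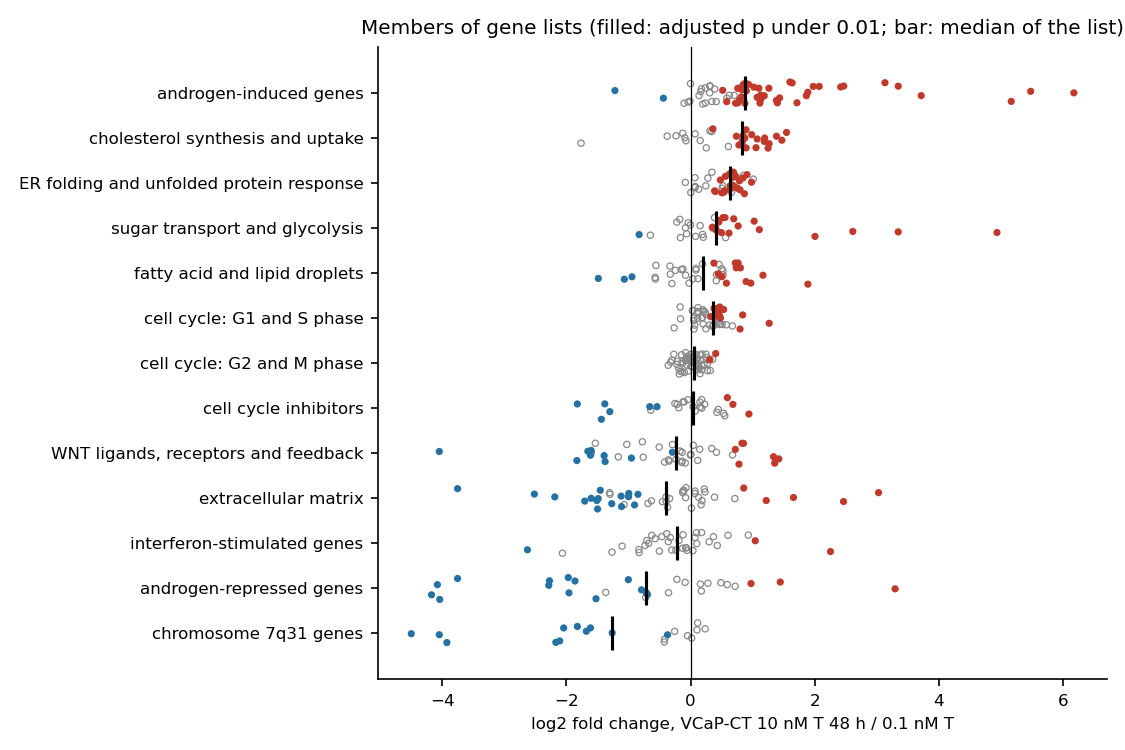
The log2 fold change of 10 nM T for 48 h over 0.1 nM T for every measured member of 13 gene lists, 1 row per list, filled in red or blue where the adjusted p was under 0.01 and open where it was not, with a black bar at the median. The lists of androgen-induced genes, cholesterol synthesis and ER folding lie to the right of 0 and those of androgen-repressed genes and of chromosome 7q31 to the left, while G2 and M phase genes sit around 0.

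FOLH1, which encodes prostate-specific membrane antigen, the target of PSMA imaging and radioligands (ENSG00000086205.17, chromosome 11, 49146635 to 49208670), had 774, 798 and 885 normalized counts in the libraries at 0.1 nM T and 44.3, 61.3 and 42.7 in those at 10 nM T (log2 fold change -4.04, SE 0.14, adjusted p = 5.69e-09). Its level fell by 4.04 on the log2 scale, with no overlap. By the naming rule the largest falls were those of GPR85, ASZ1, CD200, LINC02726, LRRN1, WNT2, FOLH1, PPFIA2, PPFIA2-AS1, ENSG00000239482, LUM and PCDH19. GPR85, an orphan receptor of the brain, went from 211, 210.1 and 220.4 to 4.92, 10.4 and 9.60 (log2 fold change -4.64, SE 0.20, adjusted p = 3.59e-08), and ASZ1, a gene of germ cells, from 1514, 1551 and 1513 to 77.5, 69.6 and 55.5 (log2 fold change -4.50, SE 0.19, adjusted p = 3.29e-08). LRRN1, a neuronal membrane protein, fell from 908 ± 67.0 to 53.4 ± 11.1, CD200, an immune checkpoint ligand, from 106 ± 26.4 to 4.75 ± 1.45, and PCDH19, a protocadherin, from 122 ± 15.3 to 8.98 ± 4.99. The called genes of highest level that fell included COLCA1, TRIB1, SESN3 and SLC30A4. TRIB1, a pseudokinase that directs protein degradation, had 15899, 16169 and 15892 at 0.1 nM T and 6698, 7074 and 6955 at 10 nM T (log2 fold change -1.21, SE 0.07, adjusted p = 2.36e-07), and SLC30A4, a zinc exporter, 12320, 12523 and 13027 at 0.1 nM T and 5307, 5762 and 5171 at 10 nM T (log2 fold change -1.22, SE 0.10, adjusted p = 5.83e-06). In TRIB1 and SLC30A4 the groups stood clear of each other.

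Matrix genes moved in both directions, more of them down. In the extracellular matrix 5 of 46 genes rose and 16 fell (8 and 18 without depleted replicate 2, 5 and 12 to 13 without any 1 VCaP-CT library). LUM, a proteoglycan that binds collagen, had 827, 901 and 931 at 0.1 nM T and 78.8, 64.4 and 54.4 at 10 nM T (log2 fold change -3.75, SE 0.17, adjusted p = 5.13e-08), COL5A2 fell from 535 ± 51.0 to 93.2 ± 7.57 (log2 fold change -2.52) and COL6A1 from 906 ± 30.3 to 278 ± 41.2 (log2 fold change -1.70). Those that rose included LAMC1, a laminin chain of basement membranes, from 8632 ± 62.5 to 20113 ± 241, and SPARC, from 11.1, 5.68 and 4.01 to 76.3, 48.8 and 52.3. Of 13 markers of fibroblasts and smooth muscle, LUM, FBLN1, COL1A1 and PDGFRB fell (adjusted p = 0.00883, up to 0.0426 without 1 library for PDGFRB), ACTA2 did not pass and 8 were not tested for low counts, 6 of them under 1 normalized count in both groups. Their summed level was 1189 to 1286 at 0.1 nM T and 205 to 233 at 10 nM T. LUM alone gave most of the sum at 0.1 nM T, and LUM, FBLN1 and COL1A1 are matrix list members too, so the sum and that list move together in part by their shared genes. Among metalloproteases and their inhibitors 2 of 23 genes rose and 7 fell (3 and 8 without depleted replicate 2), with MMP10 going from 522 ± 3.38 to 183 ± 14.5 (log2 fold change -1.51). SNAI2, a factor of epithelial-mesenchymal transition, rose from near 0, 2.57, 3.79 and 0, to 56.6, 45.7 and 61.9 (log2 fold change 4.58, SE 0.37, adjusted p = 3.88e-06). In cell adhesion 7 of 41 genes rose and 10 fell (14 and 15 without depleted replicate 2, 3 to 6 and 9 to 10 without any 1 VCaP-CT library), with SDK1 at 2.03 and CDH10 at -2.20 on the log2 scale.

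Ligands of the WNT, hedgehog and activin families were among the genes that fell. WNT ligands bind frizzled receptors to stabilize beta-catenin or steer movement. In this pathway 7 of 41 genes rose and 9 fell (8 and 17 without depleted replicate 2, 5 to 7 and 5 to 7 without any 1 VCaP-CT library). The ligands WNT2, WNT5A, WNT10B and WNT16 fell, WNT2 from 90.7, 99.4 and 126 to 2.46, 7.27 and 8.53 (log2 fold change -4.05, SE 0.30, adjusted p = 2.35e-06) and WNT5A from 568 ± 15.9 to 180.4 ± 7.59 (log2 fold change -1.65). The receptors FZD1, FZD5 and FZD8 rose, FZD5 from 1030, 1039 and 1076 to 2803, 2823 and 2804 (log2 fold change 1.42, SE 0.07, adjusted p = 7.54e-08), as did LGR5, a receptor of R-spondins (log2 fold change 1.36). SHH, the hedgehog ligand, had 50.5, 50.2 and 66.1 at 0.1 nM T and 4.92, 3.12 and 1.07 at 10 nM T (log2 fold change -4.17, SE 0.30, adjusted p = 1.78e-06), and its relative IHH fell from 2157 ± 53.7 to 897 ± 85.9. HHAT, the enzyme that attaches palmitate to both, fell from 2317 ± 29.6 to 1258 ± 50.0. In the hedgehog pathway 0 of 12 genes rose and 3 fell (0 and 8 without depleted replicate 2). At an unadjusted p under 0.05 0 rose in edgeR, and DESeq2 called 0 at an adjusted p under 0.01. INHBA, an activin subunit, fell from 1441 ± 29.7 to 243 ± 19.7, which is -2.57 ± 0.13 on the log2 scale (SE, adjusted p = 1.10e-07), and BMP2 with a log2 fold change of -2.37, while GDF15, a secreted stress cytokine, rose from 1070 ± 56.8 to 2976 ± 174. In BMP and TGF-beta signaling 4 of 33 genes rose and 7 fell (8 and 12 without depleted replicate 2). Among growth factors and receptors 4 of 32 genes rose and 9 fell (9 and 13 without depleted replicate 2, 3 to 4 and 6 to 7 without any 1 VCaP-CT library). Those that fell included ERBB2, MET and the binding proteins IGFBP3 and IGFBP5 (log2 fold change -1.22, -1.82, -2.28 and -2.55). Those that rose included FGFR1 (log2 fold change 0.97) and IGF1R, the receptor of insulin-like growth factors, from 10596 ± 229 to 23227 ± 844 (adjusted p = 0.00179, up to 0.0105 without 1 library).

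Immune and defense genes did not move as one group. Of interferon-stimulated genes 2 of 36 measured rose and 1 fell (4 and 11 without depleted replicate 2). ZBP1, a sensor of nucleic acids, rose from 11.4 ± 1.26 to 55.2 ± 10.5, HERC5, a ligase of ISG15, rose from 393 ± 16.7 to 809.8 ± 27.2, and IRF8, a factor of blood cells, fell from 21.2 ± 4.23 to 3.33 ± 1.06. In NF-kappaB and cytokine signaling 3 of 42 genes rose and 6 fell (12 and 10 without depleted replicate 2, 2 to 3 and 1 to 3 without any 1 VCaP-CT library). LIFR, the receptor of leukemia inhibitory factor, had 5767, 5767 and 5877 at 0.1 nM T and 22644, 25548 and 20389 at 10 nM T (log2 fold change 1.98, SE 0.15, adjusted p = 2.84e-06), CXCL8, interleukin 8, went from 7.70, 19.9 and 9.02 to 48.0, 56.1 and 42.7 (adjusted p = 0.00258, up to 0.0166 without 1 library), and RELB, a subunit of NF-kappaB, fell from 215 ± 26.5 to 66.6 ± 13.4 (log2 fold change -1.70). Among secreted defense proteins 6 of 17 genes rose and 5 fell (7 and 5 without depleted replicate 2). SLPI, an inhibitor of leukocyte proteases, had 71.0, 78.6 and 56.1 at 0.1 nM T and 498, 473 and 475 at 10 nM T (log2 fold change 2.81, SE 0.28, adjusted p = 2.48e-05), and LYZ, lysozyme, 121, 127 and 112 at 0.1 nM T and 474, 519 and 513 at 10 nM T (log2 fold change 2.06, SE 0.10, adjusted p = 6.53e-08), with 34.0% of its exon bases shared with other genes. LTF, the iron-binding lactotransferrin, fell from 369, 394 and 386 to 92.3, 65.5 and 82.1 (log2 fold change -2.26, SE 0.14, adjusted p = 4.14e-07), and CLU, clusterin, from 1769 ± 16.4 to 881 ± 85.5. The summed level of 13 blood cell markers was 146 to 160.0 and 501 to 549, most of it LYZ, and the defining marker PTPRC was not tested for low counts.

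Genes listed under androgen synthesis and inactivation moved both ways, and what each enzyme does to androgens in these cells was not measured. UGT2B11 had 15.4, 10.4 and 8.01 at 0.1 nM T and 128, 111 and 101 at 10 nM T (log2 fold change 3.30, SE 0.22, adjusted p = 1.07e-06) and UGT2B28 15.4, 13.3 and 18.0 at 0.1 nM T and 48.0, 42.6 and 37.3 at 10 nM T (log2 fold change 1.45, adjusted p = 0.00836, up to 0.0425 without 1 library), low levels with no overlap. These enzymes are close copies, so the share of each is uncertain. HSD3B1, which converts adrenal precursors on the way to T, rose from 34.6 ± 5.82 to 105 ± 13.7 (adjusted p = 2.84e-05), while AKR1C3, which makes T from androstenedione, fell from 63.8 ± 6.56 to 22.3 ± 2.62 (log2 fold change -1.50, adjusted p = 0.00334, up to 0.0172 without 1 library) and HSD17B6 from 926 ± 40.8 to 498 ± 3.76 (log2 fold change -0.89). In androgen synthesis and inactivation 4 of 26 genes rose and 3 fell (7 and 4 without depleted replicate 2). GATA2, a pioneer factor of prostate cells, fell from 14040 ± 408 to 10185 ± 827 (log2 fold change -0.46, adjusted p = 0.00354, up to 0.0216 without 1 library), and PGR, the progesterone receptor, from 90.1 ± 4.40 to 33.0 ± 5.65 (adjusted p = 0.00257, up to 0.0168 without 1 library). On the mitochondrial genome 0 of 13 genes rose and 0 fell (4 and 2 without depleted replicate 2). In edgeR, 1 was higher and 0 lower at an unadjusted p under 0.05, and DESeq2 called 1 higher.

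Other lists gave smaller or mixed counts. Of neuroendocrine markers 3 of 11 tested rose and 2 fell (3 and 3 without depleted replicate 2, 1 to 2 and 1 to 2 without any 1 VCaP-CT library). Their median log2 fold change was -0.21. INSM1, a factor of neuroendocrine cells, rose from 451 ± 12.9 to 1168 ± 68.6, which is 1.37 ± 0.14 on the log2 scale (SE, adjusted p = 2.84e-05). SCG3 and SYP rose by 0.56 and 0.62 (adjusted p up to 0.0222 and 0.0397 without 1 library). NCAM1 fell from 72.8 ± 9.36 to 26.7 ± 6.10 (log2 fold change -1.44, adjusted p up to 0.0106 without 1 library). ENO2 fell as well (log2 fold change -0.83). ALB, the plasma albumin gene, had 1669, 1767 and 1704 at 0.1 nM T and 325, 283 and 278 at 10 nM T (log2 fold change -2.54, SE 0.11, adjusted p = 3.29e-08), and of hepatocyte markers 2 of 6 tested rose and 2 fell (2 and 3 without depleted replicate 2, 1 to 2 and 1 to 2 without any 1 VCaP-CT library). In axon guidance 2 of 35 genes rose and 7 fell (5 and 14 without depleted replicate 2, 0 to 1 and 4 to 5 without any 1 VCaP-CT library), with SEMA3E, a repelling guidance cue, at a log2 fold change of -1.45. Among vessel signals 5 of 25 genes rose and 5 fell (6 and 9 without depleted replicate 2, 3 to 4 and 5 without any 1 VCaP-CT library). VEGFA, the main growth factor of vessels, rose from 2017 ± 115 to 3426 ± 102. APELA and APLN, ligands of the same receptor, moved in opposite directions, APELA from 237 ± 7.92 to 61.6 ± 1.01 (log2 fold change -1.94) and APLN from 393 ± 7.65 to 779.7 ± 48.8 (log2 fold change 0.99). In cell death 3 of 28 genes rose and 3 fell (12 and 5 without depleted replicate 2, 0 to 1 and 1 to 2 without any 1 VCaP-CT library), with the death ligand TNFSF10 going from 1755 ± 11.9 to 1070 ± 85.9 (log2 fold change -0.71). In redox control and metal binding 5 of 27 genes rose and 1 fell (11 and 3 without depleted replicate 2). In migration and cytoskeleton 8 of 33 genes rose and 7 fell (13 and 10 without depleted replicate 2), and in antigen presentation 2 of 12 genes rose and 1 fell (3 and 1 without depleted replicate 2, 0 to 1 and 0 without any 1 VCaP-CT library). Of basal epithelium markers 2 of 5 tested rose and 2 fell (0 to 1 and 2 without any 1 VCaP-CT library), the former being KRT14 (adjusted p = 0.00901, up to 0.0420 without 1 library) and KRT15 (adjusted p = 0.00493, up to 0.0270 without 1 library) and the latter COL17A1 and ITGB4. Of endothelial markers 2 of 7 tested rose and 1 fell (2 and 0 to 1 without any 1 VCaP-CT library). VWF and ERG rose and EMCN fell (adjusted p = 0.00165, up to 0.0103 without 1 library for EMCN), and ERG in this line comes from its fusion with TMPRSS2. Of luminal markers 5 of 13 tested rose and 1 fell (10 and 1 without depleted replicate 2).

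Noncoding genes were named by the same rule. Among called noncoding genes the largest rises were those of LINC00920, ENSG00000250767, SCIRT, SLC5A4-AS1 and CPSF1P1, and the largest falls those of LINC02726, PPFIA2-AS1, ENSG00000239482, SSTR5-AS1 and ST7-AS1. LINC00920 had 158, 168 and 139 at 0.1 nM T and 1752, 1812 and 1526 at 10 nM T (log2 fold change 3.45, SE 0.10, adjusted p = 1.81e-09) and SSTR5-AS1 947, 938 and 972 at 0.1 nM T and 112, 104 and 119 at 10 nM T (log2 fold change -3.09, SE 0.09, adjusted p = 1.81e-09). LINC02726 went from 373, 332 and 338 to 16.0, 20.8 and 16.0. ST7-AS1 shares 47.7% of its exon bases with other genes and fell along with ST7, and as strand was not used in counting, reads of an antisense RNA and its partner cannot be told apart. SLC5A4-AS1 shares 32.6%, mostly with CPSF1P1, ENSG00000239482 28.1%, mostly with CD200, SSTR5-AS1 21.9% and SCIRT 18.2%. These are therefore not fully separate changes, while LINC00920 and LINC02726 share none.

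Called genes stood next to each other at several places of the genome. Runs of called genes of 1 direction, at least 4 with less than 1 Mb between neighbors, were listed after the values were seen. Runs were defined by the calls, so their shares are no test of clustering. Of all genes tested 1.83% were called higher and 3.30% lower. The runs described are among the densest, and others were sparse, such as 8 of 32 tested genes higher on chromosome 19 and 4 of 38 lower on chromosome 12. At chr22:32043032-32285131 (GRCh38), 11 of 12 tested genes were called higher, with a median log2 fold change of 2.82. They include the transporters SLC5A1 and SLC5A4, RFPL2, C22orf42 and the pseudogene CPSF1P1. RFPL2 had 461, 442 and 489 at 0.1 nM T and 3048, 3135 and 3151 at 10 nM T (log2 fold change 2.75, SE 0.08, adjusted p = 1.81e-09) and C22orf42 4.28, 3.79 and 2.00 at 0.1 nM T and 155, 125 and 150.4 at 10 nM T (log2 fold change 5.34, SE 0.25, adjusted p = 5.59e-08), 1 from a middle level and 1 from near 0. The genes before the run, DEPDC5 and YWHAH, had log2 fold changes of -0.26 (adjusted p = 0.150, or 0.00447 without depleted replicate 2) and 0.21 (adjusted p = 0.225, or 0.00164 without depleted replicate 2). The list of chromosome 7q31 genes overlaps the next run, and on it 0 of 19 genes rose and 11 fell (1 and 13 without depleted replicate 2). At chr7:116524785-117874139, 10 of 11 tested genes were called lower, with a median of -3.04. CAV1, MET, ST7, WNT2, ASZ1, CFTR and CTTNBP2 are among them. ST7, whose product is little understood, had 13468, 13808 and 13700 at 0.1 nM T and 3116, 2982 and 3006 at 10 nM T (log2 fold change -2.17, SE 0.08, adjusted p = 1.00e-08). CAPZA2, a subunit of an actin capping protein that lies within the run, was at 6492, 6768 and 6566 and 5917, 5674 and 5026 and did not pass (log2 fold change -0.25, adjusted p = 0.101, or 6.50e-04 without depleted replicate 2). At chr12:80099537-81759553, 7 of 8 were called lower, with a median of -3.17, led in count by PPFIA2, a scaffold of synapses, with 3139, 3053 and 3151 at 0.1 nM T and 209, 206 and 211 at 10 nM T (log2 fold change -3.90, SE 0.27, adjusted p = 1.32e-06). Among smaller runs, the 4 genes tested at chr4:69199951-69526014, UGT2B11 and UGT2B28 among them, were all called higher. UGT2B15 and UGT2B17, which the study names, are not in that run. Others were SLC30A4 and 4 neighbors on chromosome 15, all 5 lower, and AMACR with 4 of its 6 neighbors on chromosome 5, higher. Some of these genes share exon bases with another gene, among them ST7, SLC5A4-AS1, PPFIA2 and AMACR, and their reads are not fully separate, while CAV1, MET, WNT2, ASZ1, RFPL2, C22orf42, SLC5A1 and SLC5A4 share none.

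**Figure D4:**
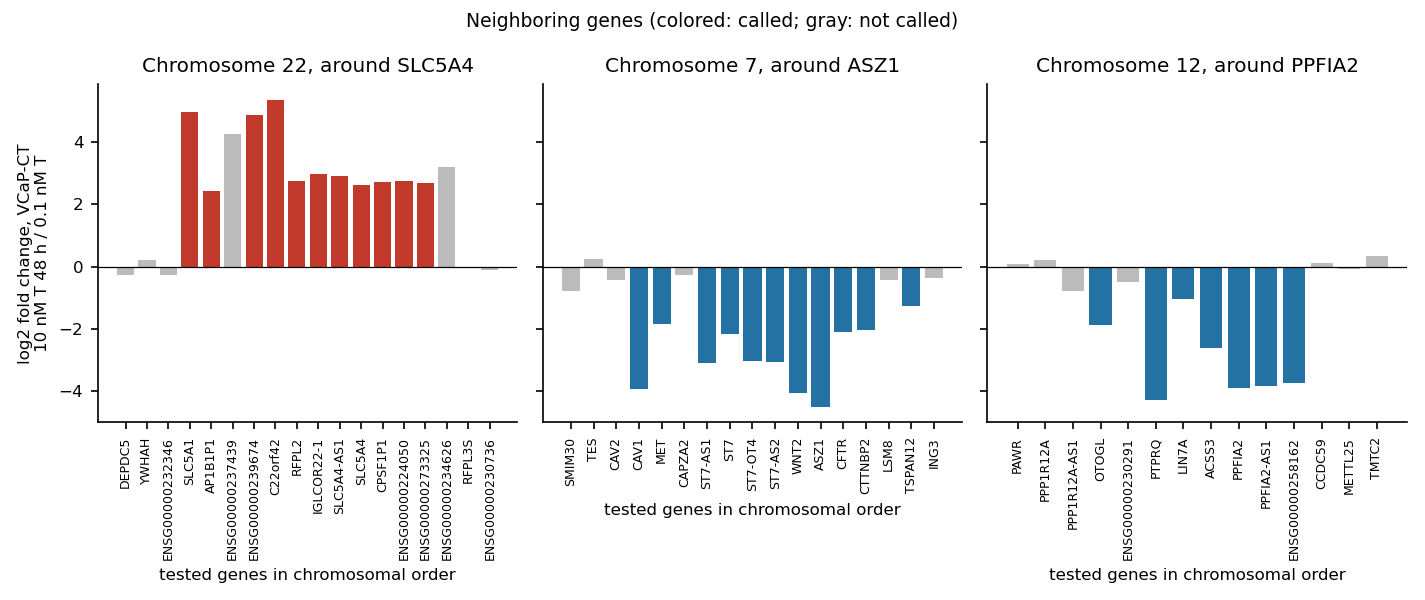
Bars give the log2 fold change of 10 nM T for 48 h over 0.1 nM T for tested genes in chromosomal order around SLC5A4, ASZ1 and PPFIA2, with 3 genes added on either side of each run, colored red or blue where called and gray where not. Bars of called genes stand side by side, those of DEPDC5, YWHAH and CAPZA2 are short, and 2 gray bars in or next to the run on chromosome 22 are as tall as their neighbors.

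Most genes called on rechallenge moved the same way with T in VCaP-T, but the rises were often smaller there. In VCaP-T, 10 nM T against 0.1 nM T for 48 h called 602 genes (3.14%), and 9.97% of genes passed the adjusted p alone. Without depleted replicate 2, which belongs to this contrast, 718 genes were called (3.65% of 19649) and 27.1% passed. Of the 351 genes called higher in VCaP-CT, 308 had a log2 fold change above 0 in VCaP-T, 97 were also called higher there and 115 had an adjusted p above 0.1, and the median log2 fold change was 0.76 against 1.55. Of the 633 called lower, 611 had a log2 fold change below 0 in VCaP-T, 230 were also called lower and 137 had an adjusted p above 0.1, with medians of -0.94 and -1.49. Without depleted replicate 2, 92 of the genes called higher and 269 of those called lower were also called in VCaP-T, 81 and 89 had an adjusted p above 0.1, 315 and 616 had the same sign, and the medians in VCaP-T were 0.72 and -0.97. Genes called in VCaP-CT were selected there, so a smaller median elsewhere is no measure of a weaker response, and the dose changed in opposite order in the lines. The response in VCaP-CT minus that in VCaP-T was called for 108 genes (0.564%), 86 with a difference above 0 and 22 below, and 76 of the 108 were also called on rechallenge. This count fell to between 55 and 71 without any 1 library of VCaP-T at 10 nM T or of VCaP-CT and rose to 234 without depleted VCaP-T replicate 2.

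By this test KLK3 had the larger fold response in VCaP-CT, with log2 fold changes of 3.13 and 0.95 (difference 2.19, SE 0.15, adjusted p = 2.08e-05). Its means went from 1669 to 14645 normalized counts in VCaP-CT and from 40912 to 78770 in VCaP-T, so in counts the rise was larger in VCaP-T. STEAP4 rose in both lines, by 5.48 and 3.10 (difference 2.38, SE 0.17, adjusted p = 2.93e-05), and ended at 6606 and 4585 normalized counts. LYZ, GDA, a guanine deaminase, and SLC30A2, a zinc transporter, rose in VCaP-CT and did not pass in VCaP-T, where log2 fold changes were -0.05, 0.26 and -0.06 (difference 2.12, SE 0.13, adjusted p = 1.25e-05 for LYZ, 2.11, SE 0.14, adjusted p = 1.47e-05 for GDA and 1.67, SE 0.11, adjusted p = 1.47e-05 for SLC30A2). Without depleted replicate 2 the rise of GDA in VCaP-T passed as well (adjusted p = 0.00595). Among falls, SSTR5-AS1 had -3.09 and -0.83 (difference -2.26, SE 0.12, adjusted p = 7.20e-06), and LMO4, RAP2B, LPCAT4 and HMGN2P46 fell by more in VCaP-CT as well, with differences of -1.49, -1.36, -1.13 and -1.11. Of the 633 genes called lower, IGFBP3 alone, in the fit of all libraries, had a response called smaller than in VCaP-T (log2 fold change -2.28 and -3.30, difference 1.02, SE 0.12, adjusted p = 7.91e-04). Without depleted replicate 2 its difference was 0.99, just under the threshold of 1, and SCUBE2 and HS3ST3B1 were the genes with a smaller response. FOLH1, LUM and TRIB1 fell in both, with differences of -0.58, 0.09 and 0.23 that did not pass (adjusted p = 0.132, 0.889 and 0.272).

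Opposite calls in the lines were seen in 2 genes, and in 4 without depleted replicate 2, the 2 added being ST6GAL1 and ASB11. GPX3, a secreted glutathione peroxidase, rose in VCaP-CT, 2810, 2613 and 2625 at 0.1 nM T and 5552, 5260 and 5641 at 10 nM T (log2 fold change 1.03, SE 0.13, adjusted p = 1.51e-04), and in VCaP-T was 42009 ± 10135 at 0.1 nM T and 16532 ± 378 at 10 nM T (log2 fold change -1.35, adjusted p = 3.57e-05). The difference of the responses was 2.38, SE 0.19, adjusted p = 5.17e-05. ANXA10, an annexin of stomach epithelium, had 7.70, 4.73 and 6.01 at 0.1 nM T and 24.6, 22.9 and 22.4 at 10 nM T in VCaP-CT (log2 fold change 1.89, SE 0.39, adjusted p = 0.00392) and means of 41.2 and 14.2 at 0.1 and 10 nM T in VCaP-T (log2 fold change -1.49, adjusted p = 0.00653). In VCaP-CT its adjusted p reached 0.0209 without 1 library. ADRA2A, an adrenergic receptor, fell in VCaP-CT from 803 ± 32.8 to 571 ± 51.1 (log2 fold change -0.49, adjusted p = 0.00850, up to 0.0433 without 1 library) and rose with T in VCaP-T (log2 fold change 0.77, adjusted p = 7.33e-04), a difference of -1.26, SE 0.16, adjusted p = 0.00171.

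**Figure D5:**
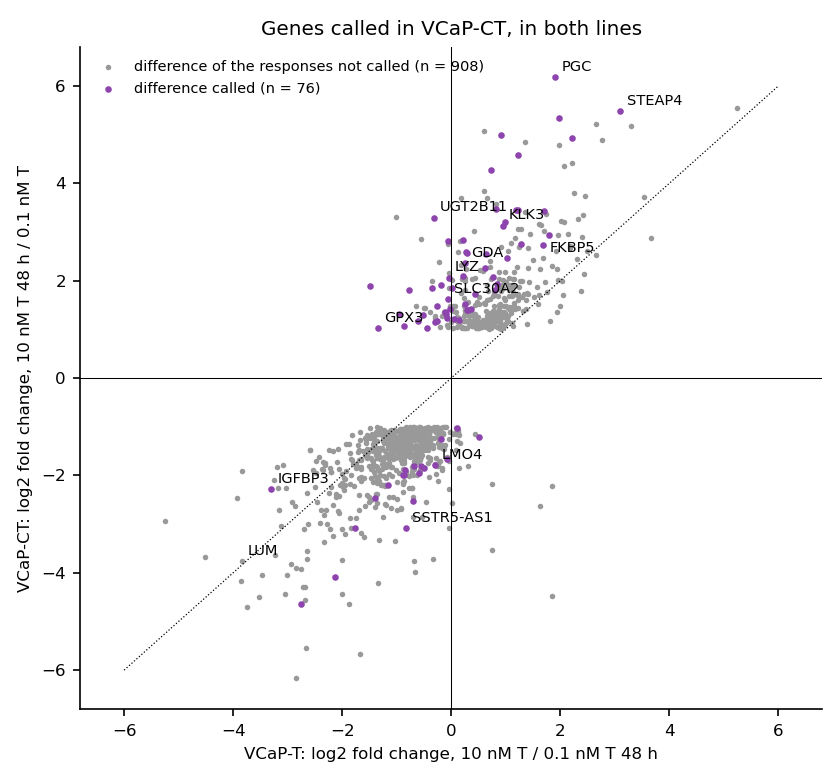
The 984 genes called in VCaP-CT, with the log2 fold change of 10 nM T over 0.1 nM T for 48 h in VCaP-T on the x axis and that of 10 nM T for 48 h over 0.1 nM T in VCaP-CT on the y axis, the 76 with responses that differed by the test in purple, the rest in gray and a dotted line at equal responses. Most points share a sign in both lines, KLK3, GDA and LYZ stand above the line, and GPX3 lies in the quadrant of opposite signs.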

How the data were processed

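RNA-seq of poly(A) RNA was measured in 12 libraries, 3 in each of 4 groups taken from the labels. As stated in the study's methods, stranded libraries were sequenced with paired ends, aligned with STAR 2.5.4b to GRCh38 and counted per gene with featureCounts 1.6.2 on Gencode release 28. The deposited values are raw counts, whose totals per library were 30469731 to 40825204 in VCaP-CT, and strand was not used in counting. A table normalized by the authors was not used. The counts were fitted with edgeR 4.0.16 (quasi-likelihood, TMM scaling, filterByExpr) in 1 model of 4 groups with 8 residual degrees of freedom. Contrasts were 10 nM over 0.1 nM T in VCaP-CT, the same in VCaP-T, and their difference. P-values were adjusted by Benjamini-Hochberg over all 19162 genes tested. A gene passed at an adjusted p under 0.01, and was called with a log2 fold change beyond 1 or -1 and group medians over 13 normalized counts apart, thresholds given in the study's methods. SE is the size of the log2 fold change divided by the root of the F statistic.

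The genes, the 39 lists (1291 entries) and the questions were chosen with earlier results of these data known. Genes named are the 12 largest rises and falls with at least 100 normalized counts and no overlap, the 5 of highest count and 5 noncoding genes in each direction, the 4 list members of smallest adjusted p in each direction, 6 differing responses in each direction and 12 set genes, among them KLK3, KLK2, TMPRSS2, FKBP5, FOLH1, INSIG1, MKI67, CCND1 and CDKN1A. Some genes that this rule names are not reported here. Others were chosen after their values were seen, as were FAM107A, LINC03007, HSPA4, RNF41, BLOC1S6, ST6GAL1, ASB11, SCUBE2, HS3ST3B1, HOXB13, FOXA1, AMACR, MCM3, MCM6, CAV1, CFTR, CTTNBP2, CAPZA2, RFPL2, DEPDC5, YWHAH, ANXA10, ACTA2 and the ER genes HSPA5, HSP90B1, CANX, CRELD2, XBP1 and ERO1B. Promoters came from RefSeq (GRCh38.p14). Alternatives were DESeq2 1.42.0, its size factors in edgeR, no filter, the VCaP-CT libraries alone, a replicate block and leaving out each library, which for VCaP-T's own calls (replicate 2 at 0.1 nM T) was chosen after seeing the data. The rechallenge test was run on simulated data. Of 67 changes of 1.5-fold 7 passed and 0 were called, and of 67 changes of 2-fold 42 passed and 23 were called. Of 66 changes of 4-fold 61 were called. A gene that did not pass can therefore still have changed by a small fold. Only these changes were simulated among 18923 genes, far fewer than the 2732 genes that passed in the data. With fewer changes the adjusted p is stricter, so the simulated shares can be lower than those of the real test. R 4.3.3 and Python 3.11.15 were used.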

Additional observations from a re-analysis of the deposited data

Results flagged for a closer look

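The response to T, 10 nM over 0.1 nM on the log2 scale, differed between VCaP-CT and VCaP-T by the test of the difference itself (edgeR's quasi-likelihood test, adjusted p under 0.01 and a difference over 1 in size) for 33 of the genes named above. Values are the response in VCaP-CT minus that in VCaP-T. The genes had been chosen mostly for their response in VCaP-CT. GPX3 and ANXA10 were called in opposite directions in the lines and differed by 2.38 and 3.38, and ADRA2A, which fell in VCaP-CT and rose with T in VCaP-T, by -1.26. IGFBP3 fell by less in VCaP-CT, with a difference of 1.02. The difference was above 0 for other genes that rose in VCaP-CT, with 4.27 for PGC, 3.61 for UGT2B11, 3.37 for C22orf42, 3.35 for SNAI2, 2.86 for SLPI, 2.72 for SLC5A1, 2.38 for STEAP4, 2.27 for BEAN1, 2.22 for LINC00920, 2.19 for KLK3, 2.12 for LYZ, 2.11 for GDA, 1.93 for ST6GAL1, 1.74 for GDF15, 1.67 for SLC30A2, 1.47 for RFPL2 and 1.15 for AMACR. It was below 0 for other genes that fell, with -1.05 for CDH10, -1.11 for HMGN2P46, -1.13 for LPCAT4, -1.31 for ST7-AS1, -1.36 for RAP2B, -1.49 for LMO4, -1.57 for WNT5A, -1.72 for ADAMTS1, -1.81 for COL5A2, -1.89 for GPR85, -1.94 for LRRN1 and -2.26 for SSTR5-AS1. Adjusted p-values of these differences ran from 7.20e-06 for SSTR5-AS1 to 0.00763 for SLC5A1. Leaving out 1 library or another took the adjusted p to between 0.0105 and 0.0405 for SLPI, WNT5A, SNAI2, ADAMTS1, ANXA10, CDH10, ST6GAL1, GPR85, LRRN1, GDF15, SLC5A1 and ST7-AS1, and kept it under 0.01 for the rest. With the replicate number as a block, only 16 of all genes had a called difference, so not all of these 33 held there. The dose changed in opposite order in the lines, T being added to VCaP-CT and withdrawn from VCaP-T, and this order cannot be told apart from the line.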

How the results depend on the processing

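The 984 calls on rechallenge became 812 to 1145 over the alternatives run, the 351 higher calls 299 to 390 and the 633 lower calls 504 to 761, all within 1.5 times. Of the 984, 979 were shared with the fit of the 6 VCaP-CT libraries alone, 969 with DESeq2, 972 with its size factors, 976 with no filter on low counts and 777 to 807 without any 1 VCaP-CT library. The count of genes with different responses in the lines moved more, from 108 to 210 with DESeq2, 172 with no filter and 106 with DESeq2's size factors in edgeR, and it ranged from 55 to 234 when 1 library was left out. The 602 calls in VCaP-T became 718 without depleted replicate 2. Distinct members of the gene lists that passed numbered 353 of 1001, 600 with the VCaP-CT libraries alone and 263 to 602 when 1 library was left out, the 602 being without depleted replicate 2. The cause of these shifts was not tested. Replicate numbers are shared by the groups in the labels, but the deviations of libraries with the same number did not correlate in VCaP-CT (-0.037, -0.014 and -0.045). With different numbers the values were -0.026 to 0.062. No pairing by number was seen, but values this small cannot exclude one. With the replicate number as a block, 824 genes were called, 299 higher and 525 lower, 820 of them shared with the 984, and 16 genes had different responses, and 262 list members passed. Of 170 of the genes named, 25 lost the threshold under at least 1 alternative and 0 changed direction. Depth limits the folds of genes near 0 at one dose, such as PGC, ORM2 and SHH.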
